A study of Mus musculus with 12 samples.

Results

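Condensin is the protein machine that folds chromatin into compact mitotic chromosomes. The measured genes were its 8 subunits, which the annotation places on 8 different chromosomes, out of 53379 genes in each count table. They were followed in the external granule layer of the cerebellum, where granule neuron precursors divide after birth, in C57BL/6 mice at postnatal day 6. The layer of the central lobules was cut out by laser capture and its RNA sequenced. There were 6 libraries from mice with a conditional knockout (KO) of SnoN, the SMAD-binding transcriptional regulator encoded by Skil, and 6 from wild-type (WT) littermates. Which cells deleted the conditional allele, and what drove the deletion, is not stated in the labels. The libraries are called by group and title number. KO4 and WT2 were marked as outliers by the submitters and stayed out of the comparison, which set KO2, KO3, KO5, KO6 and KO8 against WT1, WT3, WT5, WT6 and WT7; their values are given apart. KO2 carries a genotype tag of wild type against its title and was kept as knockout. The question for these genes is whether loss of SnoN changes transcripts of the chromosome-folding machinery in dividing precursors.

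Vertebrate cells hold a pair of condensins built on the same core. Smc2 and Smc4 are ATPases of the SMC family that join into a hinged V and are shared by both complexes. Condensin I adds the kleisin Ncaph, which closes the ring, and the HEAT-repeat subunits Ncapd2 and Ncapg. Condensin II adds the kleisin Ncaph2 and the HEAT-repeat subunits Ncapd3 and Ncapg2. Condensin II is in the nucleus through interphase and starts compaction in prophase, while condensin I reaches the chromosomes after the nuclear envelope breaks down. Dividing neural precursors need both, and mutations of condensin subunits are known in microcephaly.

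The promoters of Ncapd2, Smc2 and Ncapg2 are shown because these genes had the largest fold changes of the 8. The sequences are RefSeq's, build GRCm38.p6, from 250 bases before to 50 after the annotated start, and 7 of the 8 symbols matched an entry, Smc4 not among them. Capitals mark 3 kinds of motif searched on both strands: the cell cycle homology region (CHR, spelled TTTGAA or TTCGAA), a motif of genes expressed in G2 and mitosis; the CCAAT box (CCAAT); and E2F-like sites (GCGGGAA or GCGCGAA or GGCGGGA, which can overlap each other). Where a motif lies on the other strand, its reverse complement is in capitals. Positions are counted from the annotated start, with negative values before it.
Ncapd2 (chr6:125191537-125191836, minus strand): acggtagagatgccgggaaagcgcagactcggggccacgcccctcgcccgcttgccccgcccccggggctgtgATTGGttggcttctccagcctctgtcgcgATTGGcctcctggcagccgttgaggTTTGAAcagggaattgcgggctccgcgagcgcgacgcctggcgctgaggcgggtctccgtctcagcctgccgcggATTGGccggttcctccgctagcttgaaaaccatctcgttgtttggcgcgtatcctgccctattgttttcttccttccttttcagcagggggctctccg
Smc2 (chr4:52438971-52439270, plus strand): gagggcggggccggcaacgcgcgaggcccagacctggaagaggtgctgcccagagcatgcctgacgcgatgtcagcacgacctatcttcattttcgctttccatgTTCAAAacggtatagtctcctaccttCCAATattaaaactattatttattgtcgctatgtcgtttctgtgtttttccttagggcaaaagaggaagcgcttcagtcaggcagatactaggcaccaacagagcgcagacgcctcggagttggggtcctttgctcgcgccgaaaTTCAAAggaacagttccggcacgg
Ncapg2 (chr12:116405186-116405485, plus strand): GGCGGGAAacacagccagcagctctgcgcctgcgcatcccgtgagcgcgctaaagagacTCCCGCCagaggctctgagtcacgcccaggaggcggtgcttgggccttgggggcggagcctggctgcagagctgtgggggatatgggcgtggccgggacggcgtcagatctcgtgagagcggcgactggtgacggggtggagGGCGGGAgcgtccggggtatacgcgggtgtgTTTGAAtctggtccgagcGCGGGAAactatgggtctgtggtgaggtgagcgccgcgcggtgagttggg

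The Ncapd2 promoter held 3 CCAAT boxes, at -177, -148 and -48, and a CHR at -123. The Smc2 promoter held a CCAAT box at -119 and a CHR at -145 and again at 27. The Ncapg2 promoter had a CHR at -18 and 5 E2F-like matches, of which those at -250 and -249 overlap, but no CCAAT box. In the first listed promoter of the 7 matched subunits a CHR was found in 5 (Ncapd2, Ncapg, Ncapg2, Ncaph2 and Smc2), against 19.4% of the first listed promoters of all 27025 genes in the table. A CCAAT box was found in 3 of 7 (Ncapd2, Ncapg and Smc2), against 37.9%, and an E2F-like site in 3 of 7 (Ncapg, Ncapg2 and Ncaph2), against 14.5%. SMAD-like motifs (CAGACA on either strand or GTCTAGAC) were in 0 of 7, against 21.2%. Ncapd3 has a further listed promoter, which held a CAGACA match at -181 and a CHR at -249. These are matches of letters and no sign of binding. The motifs do not separate the subunits by direction: Ncapd2, with a lower mean in the knockout, and Smc2, with a higher one, both held a CHR and a CCAAT box.

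The libraries held 7520076 to 15083086 counts in genes, and 10381 to 20790 of them fell in the 8 condensin subunits. All 8 passed the filter on low counts, and the smallest count of any subunit in any library was 192, for Ncapd3. Skil, the targeted gene, had 20.9 to 36.7 CPM (TMM-scaled counts per 1e+06) in the 5 knockout libraries, against 38.5 to 57.8 CPM in the 5 wild-type libraries. The marked libraries had its lowest and highest values, 14.0 CPM in KO4 and 76.5 CPM in WT2. Summed over 8 markers of granule neuron precursors, the knockout libraries had 2604 to 3215 CPM and the wild-type libraries 2411 to 2684 CPM, while 4 microglial markers summed to at most 29.2 CPM. In dissected tissue, fewer cells of a type and less RNA per cell cannot be told apart. Separate animals are not stated for the libraries, and the p-values measure only the spread between these samples, which may be technical.

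Per kilobase of exon, the subunits fell into a high and a low tier in both groups. In the knockout Smc2 had 79.6 ± 16.8, Ncaph2 74.4 ± 5.87 and Smc4 71.4 ± 16.8 CPM per kilobase (SD, n = 5), and their ranges overlapped. In wild type the order was Ncaph2 at 84.3 ± 5.89, Smc4 at 65.9 ± 12.4 and Smc2 at 59.3 ± 6.93 CPM per kilobase, again with overlap between neighbours. The next subunit stood far lower, Ncapg2 at 17.2 ± 3.11 CPM per kilobase in the knockout and Ncaph at 13.2 ± 1.02 in wild type. Ncaph, Ncapd2 and Ncapg2 were close in wild type, between 11.9 and 13.2 CPM per kilobase on average, and their ranges overlapped. In the knockout these means were further apart, at 17.2 for Ncapg2, 13.7 for Ncaph and 8.17 for Ncapd2. The spacing and order of these genes within a group depend on the length used, here the union of all exons. That union is 9939 bases for Ncapg2, 6267 for Ncapd2 and 4307 for Ncaph. Their longest transcripts have 4684, 4629 and 2695 bases in the same order. Ncapg, at 6.22 ± 1.63 in the knockout and 6.58 ± 0.905 CPM per kilobase in wild type, and Ncapd3, at 4.05 ± 0.464 and 3.26 ± 0.623 in the same order of groups, were the lowest. The core and its partners were therefore not at equal levels, and the kleisin of condensin II was several times above its HEAT-repeat partners.

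**Figure D1:**
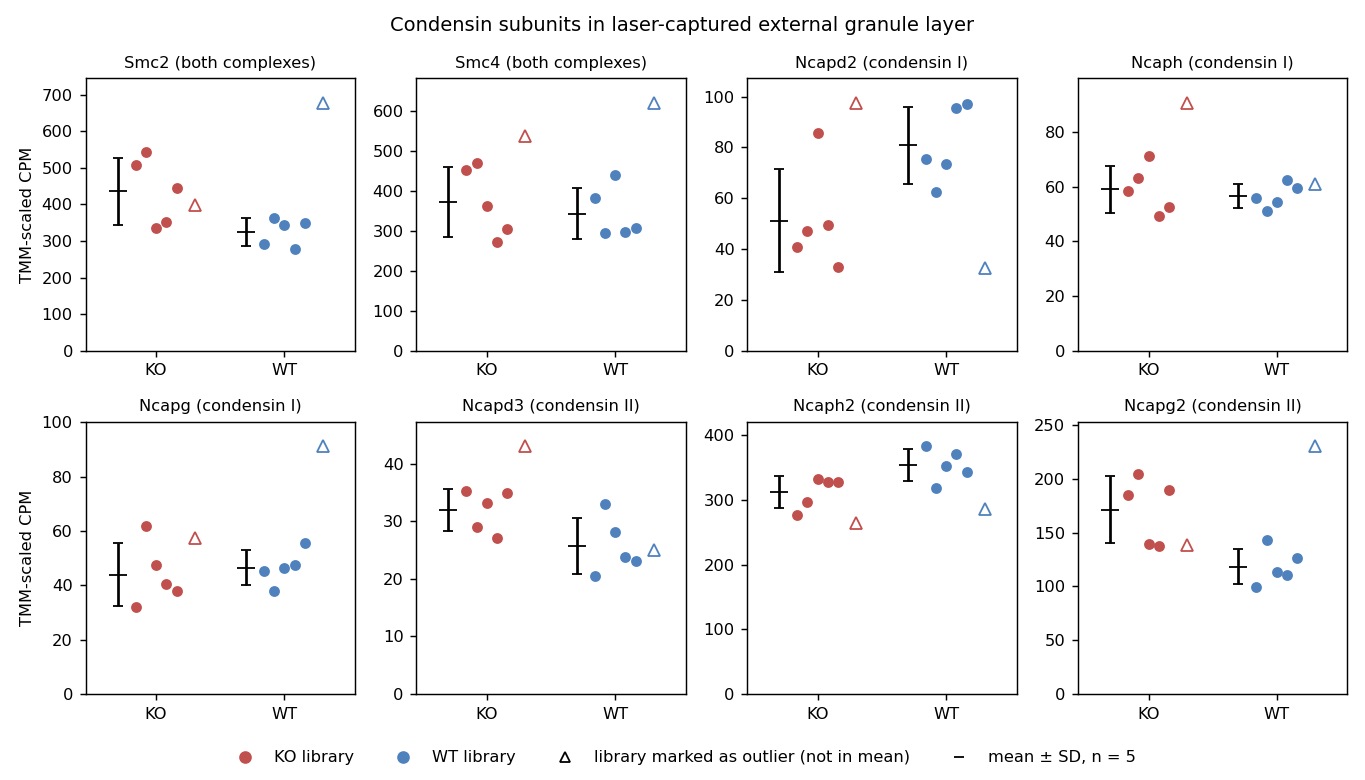
TMM-scaled CPM (vertical axes, from 0) of each subunit in every library, knockout left of wild type; filled circles are the compared libraries, open triangles the marked ones KO4 and WT2, and bars the mean ± SD of 5. Ncapd2 is lower in 4 of 5 knockout libraries than in any compared wild-type library, KO5 at 85.6 CPM being the exception, and the groups overlap for all 8 genes.

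At a Benjamini-Hochberg threshold of 0.05 no condensin subunit passed edgeR's quasi-likelihood test, and the measured differences went both ways. Skil, the targeted gene, did not pass either, with a log2 fold change of -0.70 (SE 0.15, edgeR unadjusted p = 2.1e-04, adjusted p = 0.124). Its values in all 5 compared knockout libraries were nevertheless below every compared wild-type value. Not passing is therefore no sign that a level was unchanged. Across the transcriptome 3 of 13442 genes passed, or 0.0223%. Ncapg2, Smc2 and Ncapd3 had higher means in the knockout and Ncapd2 a lower one, each at an unadjusted p under 0.05. These 4 of 8 stand beside 21.8% of all genes tested that reached that level, 11.8% with higher and 9.97% with lower knockout values. The median log2 fold change of the 8 was 0.088, against 0.001 for all genes tested, with 5 positive and 3 negative. In 0 of 8 did all knockout libraries lie on 1 side of all wild-type libraries, which was so for 2.35% of all genes.

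Of the shared ATPase core, Smc2 had 507 CPM (KO2), 543 (KO3), 335 (KO5), 351 (KO6) and 444 (KO8). The wild-type values were 291 CPM (WT1), 363 (WT3), 344 (WT5), 278 (WT6) and 348 (WT7). KO2, KO3 and KO8 were above every compared wild-type library, and KO5 and KO6 lay within the wild-type range. The means were 436 ± 91.9 CPM in the knockout and 325 ± 37.98 CPM in wild type (SD, n = 5 each), which gave a log2 fold change of 0.43 (SE 0.13). The adjusted p was 0.133 in edgeR's test, and a two-sided exact permutation test gave 0.0635. The permutation p-values here and below are for single genes and are not adjusted, so they are not to be read against the adjusted ones. KO4, at 398 CPM, was instead below WT2, at 676 CPM, and with them included the log2 fold change was 0.16 (edgeR adjusted p = 0.9985).

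Smc4, the partner of Smc2 in the core, had 372 ± 87.4 CPM in the knockout and 343 ± 64.4 CPM in wild type (SD, n = 5 each). Its knockout values ran from 272 CPM in KO6 to 470 CPM in KO3, and its wild-type values from 294 CPM in WT3 to 439 CPM in WT5. The ranges overlapped almost fully. The log2 fold change was 0.12, and 2 standard errors either side spanned -0.19 to 0.43 (edgeR adjusted p = 0.675). The marked libraries were higher than any compared library, at 536 CPM in KO4 and 619 CPM in WT2. The Smc4 gene hosts the microRNA genes Mir15b and Mir16-2 within its span, outside its exons. The level of Smc2 over that of Smc4, both per kilobase, was 0.882 to 1.38 in the knockout libraries and 0.725 to 1.18 in the wild-type ones, so the core was near even in both groups. This ratio was 0.706 in KO4 and 1.04 in WT2.

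Among the condensin I subunits, Ncapd2 had the largest fold change of the 8 genes. Its values were 41.0 CPM (KO2), 47.0 (KO3), 85.6 (KO5), 49.5 (KO6) and 32.8 (KO8). In wild type they were 75.4 CPM (WT1), 62.6 (WT3), 73.3 (WT5), 95.5 (WT6) and 97.2 (WT7). KO2, KO3, KO6 and KO8 lay below every compared wild-type library, whereas KO5 was in the middle of the wild-type range. The means were 51.2 ± 20.3 CPM in the knockout and 80.8 ± 15.0 CPM in wild type (SD, n = 5 each), which gave a log2 fold change of -0.66 (SE 0.20). It did not pass in edgeR's test (unadjusted p = 0.00522, adjusted p = 0.133), and the two-sided exact permutation p was 0.0317. Here KO4, at 97.4 CPM, was instead above WT2, at 32.7 CPM. With both included the log2 fold change was -0.31 (edgeR adjusted p = 0.9985). A small nuclear-body RNA gene, Scarna10, shares 3.78% of the exon bases of Ncapd2 on the same strand.

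The other condensin I subunits differed by less than their spread. Ncaph, the kleisin, had 59.0 ± 8.66 CPM in the knockout and 56.7 ± 4.41 CPM in wild type (SD, n = 5 each; log2 fold change 0.06, edgeR adjusted p = 0.791), and 2 standard errors either side spanned -0.17 to 0.29. KO4 had the highest Ncaph value of all libraries, at 90.5 CPM, with WT2 at 60.9 CPM. Ncapg had 43.9 ± 11.5 CPM in the knockout and 46.5 ± 6.39 CPM in wild type (log2 fold change -0.08, edgeR adjusted p = 0.781), with 2 standard errors either side spanning -0.39 to 0.23. Its knockout values ran from 31.8 CPM in KO2 to 61.9 CPM in KO3 and enclosed the wild-type range of 37.7 to 55.6 CPM. KO4 had 57.2 CPM, and WT2 had the highest Ncapg value of all libraries, at 91.1 CPM. Lcorl on the opposite strand shares 13.4% of the exon bases of Ncapg. The strand option of the counting was not stated, so whether reads there were told apart by strand is not known.

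Among the condensin II subunits, Ncapg2 had the smallest p of the 8. Its values were 185 CPM (KO2), 205 (KO3), 139 (KO5), 138 (KO6) and 190 (KO8). In wild type they were 99.5 CPM (WT1), 143 (WT3), 113 (WT5), 111 (WT6) and 126 (WT7). KO2, KO3 and KO8 lay above all compared wild-type libraries, and KO5 and KO6 lay just under WT3, the highest of them. The means were 171 ± 30.9 CPM in the knockout and 118 ± 16.6 CPM in wild type (SD, n = 5 each), which gave a log2 fold change of 0.53 (SE 0.13). The edgeR unadjusted p was 6.3e-04 and the adjusted p 0.124, so it did not pass; the two-sided exact permutation p was 0.0238. The marked libraries were at 138 CPM in KO4 and 230 CPM in WT2, and including them brought the log2 fold change to 0.28.

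Ncapd3, the least abundant subunit, had 35.3 CPM (KO2), 29.0 (KO3), 33.2 (KO5), 27.1 (KO6) and 35.0 (KO8). Its wild-type values were 20.5 CPM (WT1), 33.0 (WT3), 28.2 (WT5), 23.8 (WT6) and 23.0 (WT7). The 3 highest knockout values exceeded every compared wild-type value, and the groups overlapped through WT3 and WT5. The means were 31.9 ± 3.66 CPM in the knockout and 25.7 ± 4.92 CPM in wild type (SD, n = 5 each; log2 fold change 0.32, SE 0.14, edgeR adjusted p = 0.200). The two-sided exact permutation p, not adjusted, was 0.0476. The marked libraries kept this order, with 43.0 CPM in KO4 and 24.9 CPM in WT2, and the log2 fold change with them was 0.40 (edgeR adjusted p = 0.9985).

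Ncaph2, the kleisin of condensin II, had 312 ± 24.6 CPM in the knockout and 354 ± 24.7 CPM in wild type (SD, n = 5 each). Its knockout values ran from 276 CPM in KO2 to 333 CPM in KO5 and its wild-type values from 319 CPM in WT3 to 383 CPM in WT1. KO2 and KO3 were below the lowest compared wild-type value. The marked libraries, at 265 CPM in KO4 and 286 CPM in WT2, were both below it as well. The log2 fold change was -0.18 (SE 0.09, edgeR adjusted p = 0.272; two-sided exact permutation p = 0.0317). The opposite-strand genes Sco2 and Tymp share 19.7% and 12.7% of its exon bases.

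**Figure D2:**
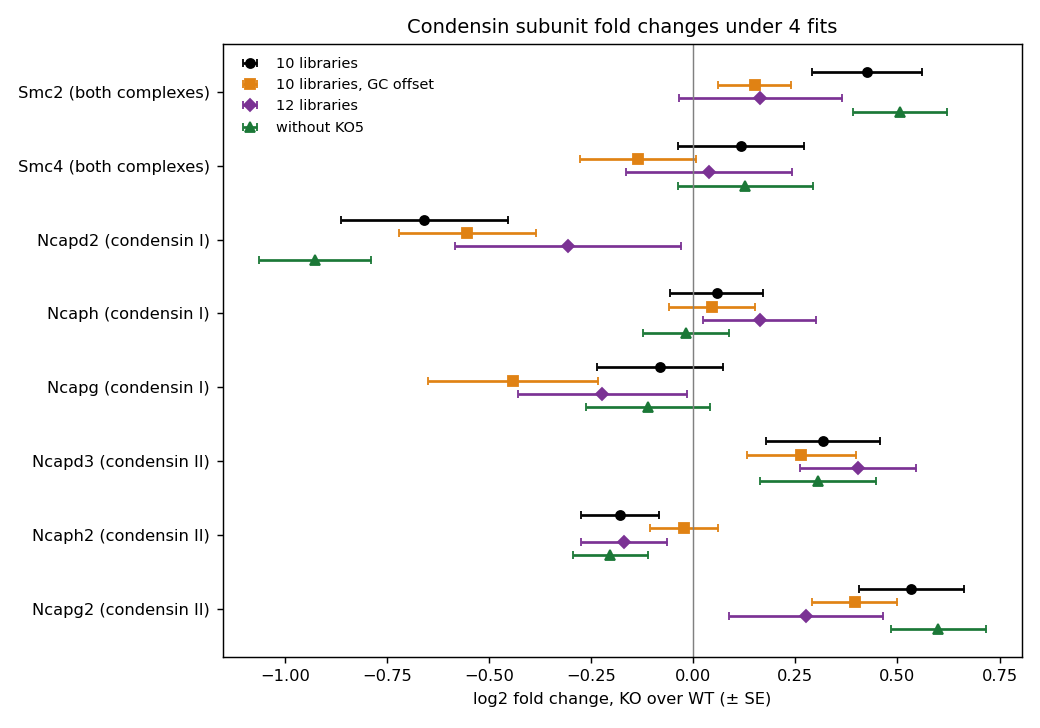
Log2 fold change of each subunit, knockout over wild type, with standard errors (horizontal axis), from the 10 compared libraries, the same with the GC trend removed, all 12 libraries, and the 10 without KO5. Ncapd2 stays below 0 and Ncapg2, Ncapd3 and Smc2 above it in all 4 fits, while Smc4 turns to -0.14 with the GC trend removed.

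Levels of subunits relative to each other are given here as a description. Summed per kilobase, the 8 subunits had 275 ± 30.1 CPM per kilobase in the knockout and 257 ± 13.0 in wild type (SD, n = 5 each). KO4 had 303, and WT2 had the highest sum of all libraries, at 369. The ratio of Ncapg2 to Ncapd2, a pair picked because their means differed in opposite directions, was, per kilobase, 2.85 (KO2), 2.75 (KO3), 1.03 (KO5), 1.75 (KO6) and 3.65 (KO8). In wild type it was 0.832 (WT1), 1.44 (WT3), 0.972 (WT5), 0.730 (WT6) and 0.818 (WT7). These ratios rest on exon-union lengths, and another length would scale them alike in all libraries. The groups overlapped through KO5 and WT3, and the marked libraries reversed the order, at 0.894 in KO4 and 4.43 in WT2. Within condensin I the ratio of Ncapd2 to Ncaph was 0.430 to 0.827 in the knockout libraries and 0.840 to 1.12 in the wild-type ones, with 0.740 in KO4 and 0.370 in WT2. The compared groups did not overlap in this ratio, but KO5 at 0.827 and WT3 at 0.840 nearly met. The ratio was formed after the values of its members were known and was not tested. How often ratios of other genes separate the groups was not counted, so the separation is no result about this pair.

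The subunits specific to condensin I made up 22.6 ± 3.52% of the summed level of all complex-specific subunits in the knockout and 24.6 ± 2.20% in wild type (SD, n = 5 each). The shares ran from 18.3% to 27.4% in the knockout libraries and from 22.3% to 27.6% in the wild-type libraries, so they overlapped widely. KO4 had the highest share, 35.1%, and WT2 had 25.5%. Ncaph2 alone supplied 77.7 ± 3.73% of the condensin II level in the knockout and 84.7 ± 2.80% in wild type. The ranges overlapped, at 74.0% to 81.9% and 80.4% to 87.9% in the same order of groups. The marked libraries reversed this order, with 76.5% in KO4 and 72.1% in WT2. The ratio of the SMC core to the complex-specific subunits was 1.23 ± 0.293 in the knockout and 0.951 ± 0.133 in wild type, and WT2 had the highest at 1.91.

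**Figure D3:**
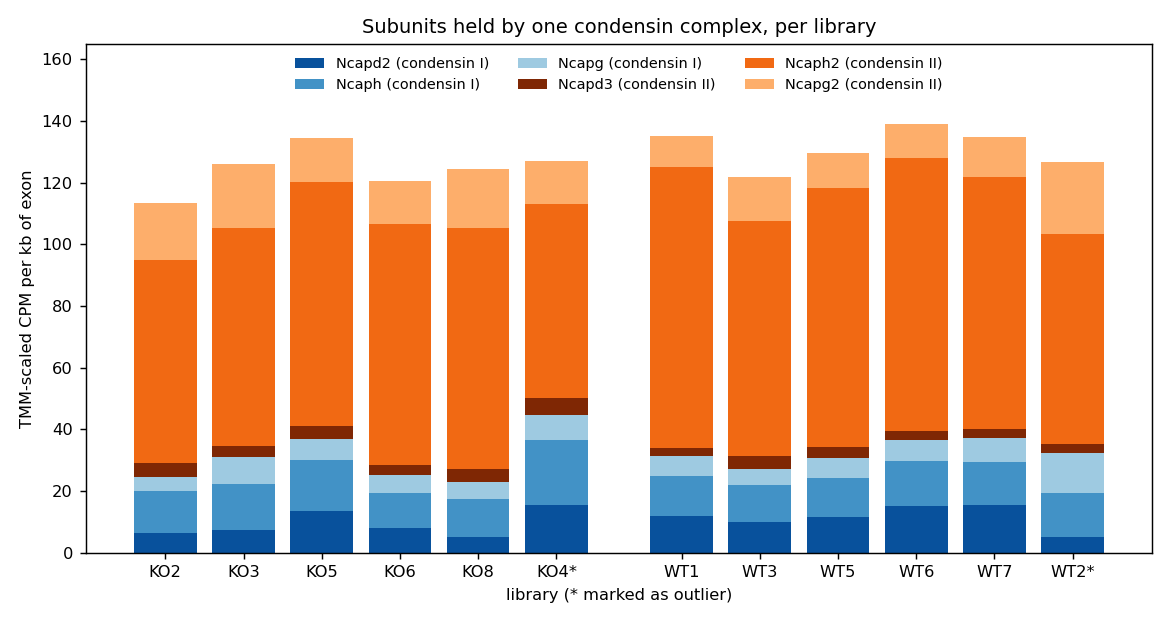
Stacked TMM-scaled CPM per kilobase of exon (vertical axis, from 0) of the subunits specific to condensin I (blues) and condensin II (browns and oranges) in each library, knockout left of wild type, with KO4 and WT2 starred as marked. Ncaph2 is the tallest segment in all 12 libraries, and condensin I takes 18.3% to 35.1% of a bar.

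The GC trend of the libraries moved with the levels of Ncapd2, Smc2 and Ncapg2, the subunits with the largest fold changes. The slope of a library's log2 CPM on transcript GC content, relative to the mean of all libraries, was -0.187 log2 units per 10 percentage points (KO2), -0.203 (KO3), 0.172 (KO5), 0.002 (KO6) and -0.169 (KO8). In wild type it was 0.126 (WT1), 0.035 (WT3), 0.102 (WT5), 0.250 (WT6) and 0.126 (WT7). KO4 had 0.169 and WT2 -0.425. Libraries with negative slopes had low Ncapd2, whose longest transcript has a GC content of 54.03%, and high Smc2 (39.7%) and Ncapg2 (44.3%). KO5, the knockout library with the highest slope among the 5, was the one at wild-type levels of Ncapd2, and WT2, with the lowest slope of all, had the lowest Ncapd2 and the highest Smc2 and Ncapg2. KO6, with a slope near that of WT3, had Ncapd2 at 49.5 CPM, below every compared wild-type library. Its Smc2 and Ncapg2 lay within the wild-type range. Smc4 (40.2%) and Ncapg (34.84%) followed the slopes only in part. Both were highest in WT2, at 619 and 91.1 CPM, and among the compared libraries in KO3, at 470 and 61.9 CPM. Smc4 was however at 306 CPM in KO8 and 439 CPM in WT5, and Ncapg was lowest in KO2, at 31.8 CPM.

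**Figure D4:**
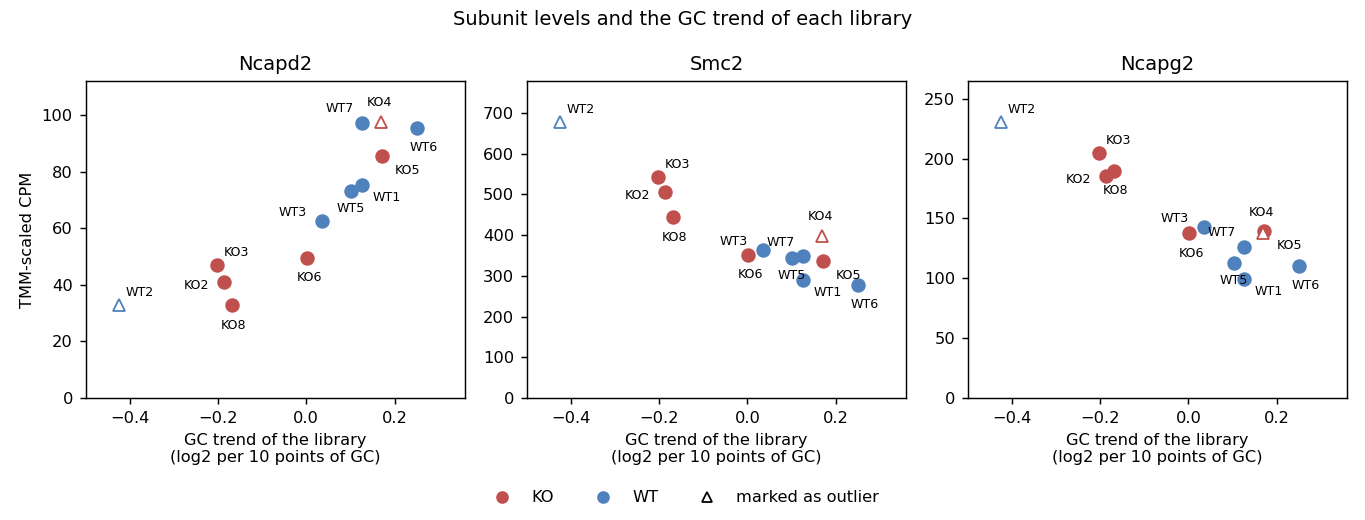
TMM-scaled CPM (vertical axes, from 0) of Ncapd2, Smc2 and Ncapg2 in each of the 12 libraries against the library's GC trend (horizontal axis, log2 units per 10 points of GC); red is knockout, blue is wild type and open triangles are the marked libraries. KO2, KO3 and KO8, at -0.169 to -0.203, sit apart from the compared wild-type libraries, at 0.035 to 0.250, in all 3 panels.

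Set against genes of like GC content, 3 subunits were above and 2 below the quartile range of fold changes. By definition about 50% of the genes of a class lie outside its quartiles, so this count is near the share of all genes. Ncapg2, at 0.53, and Ncapd3, at 0.32, exceeded the upper quartiles of their classes, 0.31 for 42 to 46% GC and 0.20 for 46 to 50%. Smc2, at 0.43, was close to its upper quartile of 0.41 for 38 to 42%. Ncapd2, at -0.66, was below the lower quartile of -0.32 for 54 to 58%, and Ncapg, at -0.08 among genes under 38% GC, was below 0.18. Smc4, Ncaph and Ncaph2 lay within the quartiles. Once each library's GC trend was removed, the log2 fold change was 0.39 for Ncapg2 (SE 0.10, edgeR adjusted p = 0.158) and -0.55 for Ncapd2 (SE 0.17, adjusted p = 0.178). It was 0.26 for Ncapd3 (adjusted p = 0.344) and -0.44 for Ncapg (SE 0.21, adjusted p = 0.324), while Smc2 shrank to 0.15 (adjusted p = 0.419) and Ncaph2 to -0.02 (adjusted p = 0.922). None of the 8 passed in that fit, where 0.0372% of all genes did.

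**Figure D5:**
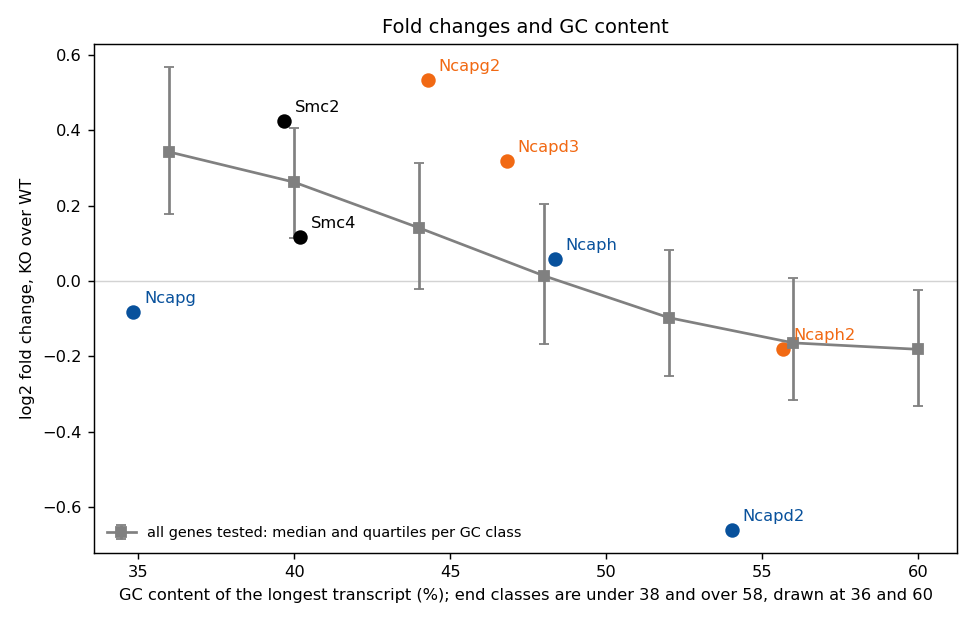
Log2 fold change, knockout over wild type (vertical axis), against the GC content of the longest transcript in percent (horizontal axis), with the median and quartiles of all tested genes per GC class in grey and the subunits of both complexes in black, of condensin I in blue and of condensin II in orange. The class medians run from 0.34 under 38% to -0.18 over 58%, and Ncapg2 and Ncapd2 lie outside the quartiles on opposite sides.

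In edgeR's test on the filtered genes, whether subunits passed turned on KO5. Without it, Ncapd2 had a log2 fold change of -0.93 (adjusted p = 9.1e-04), Ncapg2 0.60 (0.00148) and Smc2 0.51 (0.00385). In that fit 22.9% of all genes passed, against which the 3 of 8 is to be read. With KO5 left out and the GC trend removed, Ncapd2 (-0.75, adjusted p = 8.6e-04) and Ncapg2 (0.43, 0.00663) passed, among 11.8% of all genes, and Smc2 did not (0.16, 0.240). DESeq2 on all 10 libraries passed Ncapg2 (0.54, adjusted p = 0.0189) and Ncapd2 (-0.66, 0.0451), among 3.34% of all genes. With no filter on low counts edgeR passed Ncapd2 (adjusted p = 3.1e-04), Ncapg2 (0.00124) and Smc2 (0.0103), among 3.49% of 27688 genes. Without KO2, the library with the wild-type tag, the log2 fold change was -0.59 for Ncapd2, 0.51 for Ncapg2, 0.37 for Smc2 and 0.28 for Ncapd3 (edgeR adjusted p = 0.301, 0.301, 0.303 and 0.388). With KO2 counted as wild type they were -0.46, 0.38, 0.24 and 0.19, with the same signs and 0 of 8 subunits passing. In the filtered edgeR fits, leaving out any single library other than KO5 left the number that passed at 0.

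Genes listed as partners and regulators of condensin did not pass the test either. Of 18 partners and regulators measured, 0 passed over all genes tested in edgeR's test; 3 had higher and 0 lower knockout values at an unadjusted p under 0.05, beside 11.8% and 9.97% of all genes, and the median log2 fold change was -0.03, against 0.001 for all genes. Top2b, a DNA topoisomerase, had 998 ± 122 CPM in the knockout and 778 ± 120 CPM in wild type (SD, n = 5 each; adjusted p = 0.143). The mitotic cyclin Ccnb1 had 147 ± 40.6 CPM in the knockout and 108 ± 15.6 CPM in wild type (adjusted p = 0.160), with the opposite order in KO4 (95.7 CPM) and WT2 (228 CPM). Aurkb, the kinase that promotes loading of condensin I, had 105 ± 13.7 CPM in the knockout and 120 ± 19.8 CPM in wild type (adjusted p = 0.364).

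Of 5 other SMC genes tested, 0 passed in edgeR's test, and the median log2 fold change was 0.14. Smc3, a cohesin ATPase, had 268 ± 63.3 CPM in the knockout and 195 ± 27.9 CPM in wild type (SD, n = 5 each; log2 fold change 0.46, adjusted p = 0.139), with KO4 at 222 CPM and WT2 at 419 CPM. Like Smc2 it has a GC-poor transcript, at 42.3%. Smc5 and Smc6, the ATPases of a complex in DNA repair, had log2 fold changes of 0.14 and 0.19 (adjusted p = 0.490 and 0.343), and Smchd1, which acts in X inactivation, had 0.13 (0.537). Of 30 genes of G2/M and mitosis, 0 passed; 8 had higher and 3 lower knockout values at an unadjusted p under 0.05, beside 11.8% and 9.97% of all genes, with a median log2 fold change of -0.01. The 4 with the smallest p were Ttk, Ndc80 and Ect2 with higher means (log2 fold changes 0.48, 0.35 and 0.35) and Kif20a with a lower one (-0.56); their adjusted p ran from 0.131 to 0.158.

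Markers of neighbouring cells also moved with some of these values, and their part in the result was not tested. The 5 Purkinje cell markers summed to 267 to 472 CPM in the knockout libraries and 207 to 313 CPM in the wild-type ones, with 247 CPM in KO4 and 573 CPM in WT2. The 6 markers of Bergmann glia and astrocytes summed to 769 to 1207 CPM in the knockout and 549 to 939 CPM in wild type, with 808 CPM in KO4 and 1961 CPM in WT2. Of the Purkinje list 4 genes were tested, and 3 of them had higher knockout values at an unadjusted p under 0.05. Of the glial list 1 of 6 did. Of all genes tested, 11.8% had higher and 9.97% lower knockout values at that level. Of the 8 granule neuron precursor markers 2 had higher and 1 lower values, and of the 4 meningeal markers 1 had higher ones. The endothelial, microglial, red blood cell and maturing granule neuron lists had 0 at that level. The 4 meningeal markers summed to 397 to 765 CPM in the knockout and 414 to 732 CPM in wild type, and the 3 red blood cell markers to 339 to 596 CPM and 297 to 544 CPM in the same order of groups. Interneuron markers (4 genes) summed to 8.02 to 32.4 CPM in the knockout and 9.78 to 16.9 CPM in wild type. Of that list 2 genes were tested, and 2 had higher knockout values at an unadjusted p under 0.05, while 2 of 5 oligodendrocyte lineage genes had lower ones. The oligodendrocyte lineage (5 genes), endothelial (4) and maturing granule neuron (5) markers overlapped between the groups as well, at 289 to 310, 144 to 267 and 28.8 to 55.7 CPM in the knockout against 294 to 363, 164 to 223 and 26.9 to 54.8 CPM in wild type. No marker list had a defining gene at 0 counts in all libraries.

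The genes most like each subunit across the 10 compared libraries were found by Pearson's r of log2(CPM + 1) among 8930 genes with a mean of at least 10 CPM, as a description of these libraries, which share their differences in GC trend. Ncapd2 was closest to Trp53 (r = 0.986, GC 53.3%) and Ruvbl2 (0.985, GC 57.9%). Smc2 was closest to Dhx36 (0.987, GC 39.96%) and Hprt (0.986, GC 40.1%). Ncapg2 was closest to Fam199x (0.989, GC 38.4%) and Gtpbp10 (0.986, GC 39.5%). For these 3 subunits the nearest genes were thus of the same side of GC content, and r over all 12 libraries was 0.966 to 0.988. Smc4 (GC 40.2%) was closest to Kmt2e (0.946, GC 45.92%) and Rbm25 (0.898, GC 37.46%). Ncaph (GC 48.35%) was closest to Pum3 (0.942, GC 39.34%) and Cdca3 (0.940, GC 50.96%). Ncapd3 (GC 46.81%) was closest to Enox1 and Arid1b (0.938 each, GC 52.77% and 52.88%). Ncaph2 (GC 55.66%) was closest to Gadd45gip1 (0.976, GC 54.85%) and Ppp1ca (0.974, GC 56.14%). Ncapg (GC 34.84%) was closest to Ost4 and Narfl (0.930 each, GC 50.26% and 55.37%). The nearest genes were therefore not of like GC content for every subunit. Over 12 libraries r fell to 0.576 for Gadd45gip1, 0.654 for Ost4 and 0.572 for Narfl. No subunit was among the 2 closest genes of another. The most alike pair of subunits was Smc2 and Ncapg2, with r = 0.942 over 10 and 0.949 over 12 libraries.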

How the data were processed

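RNA of laser-captured external granule layer was sequenced in 12 libraries. The authors deposited unnormalized counts of reads per gene. The submitters' processing notes name HTSeq 0.6.1, STAR 2.5.3a, cutadapt 1.16 and DESeq2 with build mm10; settings, annotation release and strand option were not stated. The 5 summary rows were left out; alignments to several places were 64.4% to 67.6% of records, and 6.81% to 8.13% of uniquely placed reads were ambiguous between genes. Symbols, positions, exon unions and transcript GC content came from GENCODE M21 (GRCm38), which matched 53274 of 53379 identifiers. Groups and numbers came from titles. Of 30 library pairs within groups, none agreed within sampling noise (chi-square over its degrees of freedom, 6.15 to 85.3).

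Genes were filtered with filterByExpr (minimum count 10), TMM-scaled and compared in 5 against 5 libraries by edgeR's quasi-likelihood test (edgeR 4.0.16, limma 3.58.1, R 4.3.3), with a Benjamini-Hochberg threshold of 0.05 over all genes. CPM were scaled over all 12 libraries. The procedure was tested on simulated counts that held no GC trend and no outlying library, so that test does not cover these features. GC trends were removed with a spline (5 degrees of freedom) as an offset. Other settings used DESeq2 1.42.0, limma voom and sva 3.50.0. Members, lists and settings were chosen with earlier results of these data known. Named genes were the 8 subunits, Skil, up to 4 genes per list with the smallest p, overlapping genes, and the 2 genes most like each subunit (1 gene the rule names is not reported here); in addition, ratios between subunits were formed after values were seen.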

Additional observations from a re-analysis of the deposited data

How the results depend on the processing

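Over 35 alternative settings the log2 fold changes of Ncapd2 (-0.93 to -0.22), Ncapg2 (0.25 to 0.61), Smc2 (0.10 to 0.51) and Ncapd3 (0.03 to 0.42) kept their sign, and Ncapd3, Smc4, Ncaph, Ncaph2 and Ncapg passed in 0 of them. Of all genes, 3 passed in the comparison; 449 did with DESeq2 and 965 with no filter, where 2 and 3 subunits passed (Ncapg2 at 0.54 and Ncapd2 at -0.66 in both fits, and Smc2 at 0.43 with no filter). The count was 1 with all 12 libraries, with KO4 added or with 1 surrogate variable, 5 with the GC offset, and 0 with KO2 counted as wild type. With each library left out it ranged from 0 (without WT7 or KO2) to 3102 (without KO5), with 1 without WT6 or KO8 and 6 without KO6. With the GC offset as well it ranged from 3 to 1597, the most again without KO5. The cause of these changes was not tested. At 0 called genes, 756 had an unadjusted p under 0.05 with KO2 as wild type, 2463 without WT7 and 1942 without KO2.

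The number of subunits called ranged from 0 to 3 with each library left out, and from 0 to 2 with the GC offset as well. The leave-one-out ranges of log2 fold change were -0.93 to -0.53 for Ncapd2, 0.46 to 0.61 for Ncapg2, 0.33 to 0.51 for Smc2, 0.24 to 0.42 for Ncapd3, 0.02 to 0.22 for Smc4, -0.0184 to 0.11 for Ncaph, -0.21 to -0.14 for Ncaph2 and -0.24 to 0.0159 for Ncapg. With the GC offset as well they were -0.75 to -0.45 for Ncapd2, 0.34 to 0.45 for Ncapg2, 0.10 to 0.19 for Smc2, -0.21 to -0.04 for Smc4, -0.0168 to 0.10 for Ncaph, -0.07 to 0.0040 for Ncaph2, 0.19 to 0.36 for Ncapd3 and -0.61 to -0.31 for Ncapg. Smc4 was also negative with the GC offset (-0.14), with WT2 added (-0.0698), with KO2 as wild type (-0.0349) and with voom on 12 libraries (-0.0022). Ncaph turned to -0.0227 with library size alone. Ncapg turned positive with KO2 as wild type (0.0939) and with 1 surrogate variable (0.0015). Without a length correction the condensin I share was 22.9% in the knockout and 26.9% in wild type, against 22.6% and 24.6% with it.

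Title numbers 3, 5 and 6 occur in both groups. The labels do not say that the numbers pair samples, so they were not taken to do so. The deviations of same-numbered libraries correlated at 0.14, -0.07 and 0.11. So few correlations, in libraries that differ in GC trend, cannot show whether they were paired. With the replicate number as a block 0 genes passed (607 at an unadjusted p under 0.05), with or without the GC offset (569). In that fit only the libraries numbered 3, 5 and 6 inform the difference, since every other number occurs in a single group. The block and the smaller set of libraries cannot be told apart there. Ncapd2 was -0.38, Ncapg2 0.38, Smc2 0.29, Ncapd3 0.0804 (0.0285 with the GC offset) and Ncapg 0.17. Smc4 was -0.078 with the block and the GC offset.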
